A study of Mus musculus with 6 samples.

Results

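Metallothioneins and zinc transporters were followed in liver RNA from 6 mice. The 10 genes were chosen by name, with earlier results of these data known. They are the metallothionein genes Mt1 and Mt2 and the ZnT transporter genes Slc30a1, Slc30a4 and Slc30a5. The ZIP transporter genes Slc39a1, Slc39a4, Slc39a7, Slc39a8 and Slc39a14 complete the set. All 10 were measured, among 12393 genes in the table. Every mouse was a Ppara KO on a C57 background, 1 month old, so the controls lacked Ppara as well. In 3 mice the liver had been injected with an adenoviral vector for TFEB, and 3 mice were not injected. No vector-injected control was labelled, so TFEB and the injection itself cannot be told apart. The labels name neither the vector's promoter nor the time between injection and sampling.

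Metallothioneins are small cysteine-rich proteins that bind zinc, copper and cadmium. In liver their genes are switched on by zinc through the metal-sensing factor MTF-1, and also by glucocorticoids and inflammatory cytokines. ZnT proteins move zinc out of the cytosol, across the cell surface or into organelles, and ZIP proteins move it into the cytosol. Slc30a1 is, like the metallothionein genes, a classical zinc-induced MTF-1 target, and Slc39a14 is known for its induction by interleukin-6 in the acute phase response.

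MTF-1 binds metal response elements, whose core reads TGCACNC or TGCGCNC. The promoters of Mt1, Mt2 and Slc30a1 are shown because all 3 genes are known MTF-1 targets. Mt1 was higher in all 3 injected livers, Mt2 in injected replicates 2 and 3, and Slc30a1 was lower in all 3. Each sequence is the 250 bases before the annotated start, from RefSeq on GRCm38.p6, on the plus strand. Capitals mark the core on either strand. The window is chr8:94178839-94179088 for Mt1, chr8:94172368-94172617 for Mt2 and chr1:191906531-191906780 for Slc30a1.
Mt1: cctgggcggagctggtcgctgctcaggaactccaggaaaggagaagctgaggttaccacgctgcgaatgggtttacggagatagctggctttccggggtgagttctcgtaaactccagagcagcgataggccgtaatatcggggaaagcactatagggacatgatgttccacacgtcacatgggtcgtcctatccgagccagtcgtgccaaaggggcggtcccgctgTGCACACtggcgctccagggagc
Mt2: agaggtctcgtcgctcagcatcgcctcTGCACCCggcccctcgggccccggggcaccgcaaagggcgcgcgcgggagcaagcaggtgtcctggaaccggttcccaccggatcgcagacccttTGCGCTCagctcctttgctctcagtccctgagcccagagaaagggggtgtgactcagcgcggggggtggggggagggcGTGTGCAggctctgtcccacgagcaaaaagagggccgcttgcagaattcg
Slc30a1: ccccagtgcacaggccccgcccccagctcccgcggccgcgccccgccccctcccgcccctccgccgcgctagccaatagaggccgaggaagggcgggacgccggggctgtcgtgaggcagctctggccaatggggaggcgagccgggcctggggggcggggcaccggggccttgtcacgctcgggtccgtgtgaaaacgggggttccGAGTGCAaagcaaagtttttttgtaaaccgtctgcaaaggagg

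The Mt2 window held 3 matches to the core, whose bases farthest upstream lie 223, 128 and 50 bases before the start. Mt1 had 1 match, at 23 bases, and Slc30a1 had 1, at 43 bases. Of 32851 such windows over all genes, 21.4% held at least 1 match and 1.26% at least 3. With the 50 bases after the start added, the 300-base windows of Mt1, Mt2 and Slc30a1 held 3, 4 and 2 matches. The window of Slc30a4, which did not pass the test below, also held 3. Slc30a5 and 1 of the Slc39a8 windows held 1 each, and the remaining member windows held 0. Of all such windows 1.97% held at least 3. For Mt1 the annotated start may lie upstream of the main start used in liver, so its count and its distance of 23 bases hold for this window only. Matches on either strand were counted, overlapping ones included, and a match is not shown to be a bound site.

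TFEB binds an E-box with the core CACGTG, which reads the same on both strands. Of the 8 members with a RefSeq window (9 windows, since Slc39a8 has 2), this core was found for Slc30a5 and for 1 of the Slc39a8 windows. Over all genes 6.02% of windows held it. These promoters are shown because they held the core, which is in capitals. Both transcripts were higher in the injected livers, as was Mt1, whose window held no CACGTG. The window is chr13:100833428-100833677 on the minus strand for Slc30a5 and chr3:135825407-135825656 on the plus strand for Slc39a8, with the E-box starting 61 and 71 bases before the start.
Slc30a5: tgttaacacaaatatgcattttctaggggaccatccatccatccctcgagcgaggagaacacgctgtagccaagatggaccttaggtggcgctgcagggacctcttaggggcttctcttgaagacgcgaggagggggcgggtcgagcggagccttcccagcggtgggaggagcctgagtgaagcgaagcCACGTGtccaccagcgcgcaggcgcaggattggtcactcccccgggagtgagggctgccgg
Slc39a8: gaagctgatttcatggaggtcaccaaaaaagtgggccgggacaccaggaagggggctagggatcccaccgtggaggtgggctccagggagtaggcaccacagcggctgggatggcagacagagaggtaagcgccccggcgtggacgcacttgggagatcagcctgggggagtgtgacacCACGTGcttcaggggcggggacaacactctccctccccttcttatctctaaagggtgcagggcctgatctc

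The same search found 1 metal response core before Slc30a5, 1 in the second Slc39a8 window and 2 before Slc30a4. None of the 9 windows held TTCNNNGAA, the palindrome bound by STAT factors, which 7.02% of all windows held. Binding was not measured in these samples. Slc39a4 and Slc39a14 had no entry in the promoter table used.

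The comparison asks which of these transcripts differ between TFEB-injected and not-injected livers. Values are log2 expression levels per probe set, so a difference of 1 is a doubling. A gene "rose" or "fell" where the limma test, adjusted over all 12393 genes, gave an adjusted p under 0.05. By that rule Mt1, Slc30a5 and Slc39a8 rose, Slc30a1 and Slc39a14 fell, and the other 5 members did not pass. The 5 calls among 10 members stand beside 17.9% of all genes called, with 9.99% of all genes rising and 7.92% falling. Those shares include many genes dimmer than the members. In not-injected livers the members averaged 9.97 to 10.04 on the log2 scale, against 7.55 to 7.56 for all genes. A fit of the brighter genes alone, those reaching the median level, called 2261 genes, against 2219 of all 12393, and again 5 members. The share called was thus higher among brighter genes, and the members were not tested against it. The median log2 change was -0.01 over the members and -0.01 over all genes tested. In the 5 members that passed, the injected and not-injected arrays did not overlap, and over all genes 37.1% showed no overlap. The count of 5 was 3 without not-injected replicate 3, when Mt1 and Slc39a14 lost their calls.

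Pearson correlations between arrays over all genes were 0.998 to 0.999 among not-injected livers, 0.995 to 0.998 among injected livers and 0.989 to 0.993 across the groups. The injected arrays varied more, with a median SD ratio of 1.24. Hepatocyte markers were abundant on every array, with 10 markers averaging 13.84 to 13.95 on the log2 scale against 7.55 to 7.57 for all genes. The Tfeb probe set averaged 7.55 ± 0.07 without and 7.59 ± 0.12 with injection (SD, n = 3). Ppara read 8.95 ± 0.07 and 9.08 ± 0.04. Neither the species of the TFEB insert nor the deleted part of Ppara is stated in the labels, so these probe sets check nothing.

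**Figure D1:**
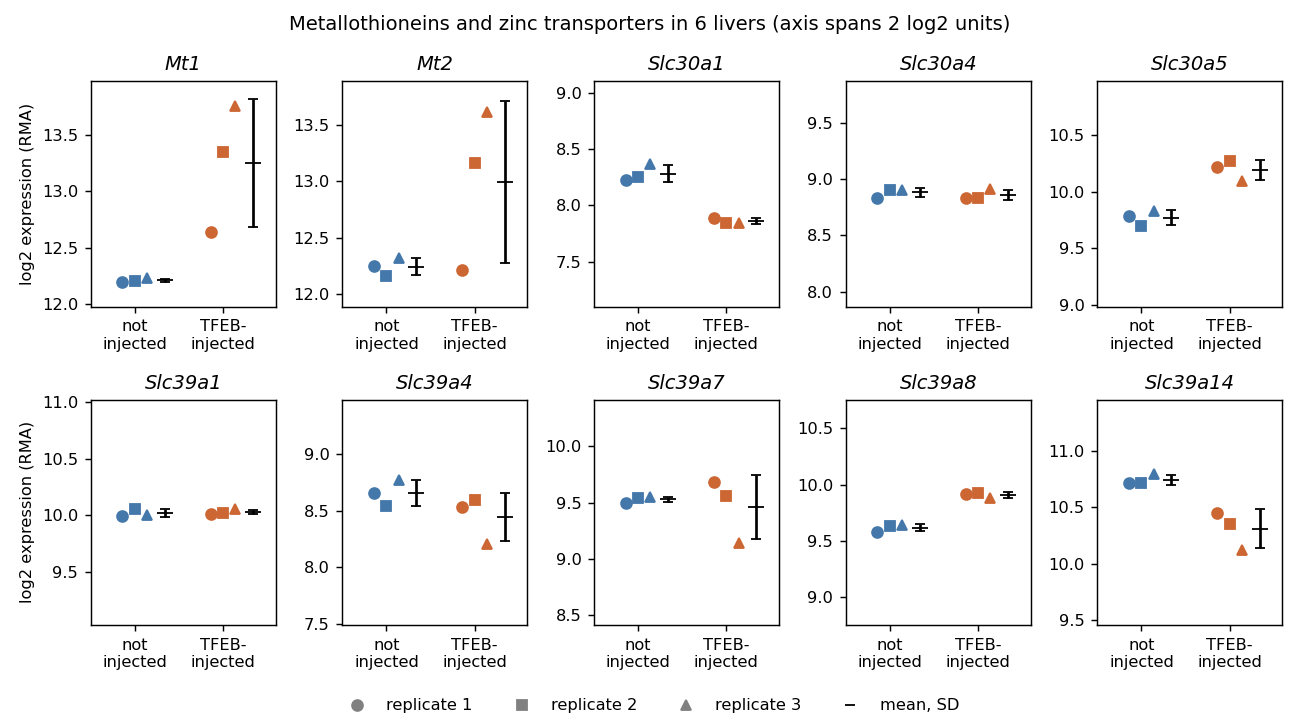
Log2 expression (RMA) of the lead probe set of each member on each array, with not-injected livers in blue, TFEB-injected livers in orange, replicate numbers as marker shapes and black bars for mean and SD (n = 3); every panel spans the same range of the log2 scale. The injected points of Mt1 and Mt2 are spread widely while the not-injected points lie close together, and Slc30a1 and Slc39a14 sit lower and Slc30a5 and Slc39a8 higher in all 3 injected livers.

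Mt1 was higher in all 3 injected livers, by very different amounts. The lead Mt1 probe set, that with the highest mean over the arrays, read 12.20, 12.20 and 12.23 in not-injected replicates 1, 2 and 3. It read 12.64, 13.35 and 13.76 in TFEB-injected replicates 1, 2 and 3. All 3 injected livers thus lay above all 3 not-injected livers, replicate 1 by the smallest margin. The mean went from 12.21 ± 0.02 (SD, n = 3) to 13.25 ± 0.57, a log2 change of 1.04 ± 0.24 (SE; limma adjusted p = 0.0258). This is 2.06-fold, with a 95% interval of 1.38 to 3.06. The limma fit takes the same spread in both groups, drawn toward that of other genes, although the SDs here were 0.02 and 0.57. An interval with a separate spread for each group was not computed. Leaving out any single not-injected array, or TFEB-injected replicate 2, ended the call (adjusted p from 0.0729 to 0.0900). Without TFEB-injected replicate 1 the change was 1.35, and without replicate 3 it was 0.78 (limma adjusted p = 0.0291).

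A second, dim Mt1 probe set gave a smaller change that did not pass. It read 6.07, 6.03 and 6.03 in not-injected and 6.12, 6.17 and 6.46 in injected replicates 1, 2 and 3. Its groups did not overlap either, with a log2 change of 0.21 ± 0.09 (SE; adjusted p = 0.165 over all probe sets). The lead Mt1 probe set is of the _s_at type, which can also detect related transcripts, and how much of its signal comes from other metallothionein genes was not tested.

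Mt2, the other metallothionein gene abundant in liver, did not pass the test. Its probe set read 12.25, 12.16 and 12.32 in not-injected livers and 12.21, 13.16 and 13.62 in injected replicates 1, 2 and 3. Injected replicate 1 lay within the not-injected range, and the other two injected livers lay well above it. The means were 12.24 ± 0.08 and 13.00 ± 0.72 (SD, n = 3), a log2 change of 0.75 ± 0.31 (SE; limma adjusted p = 0.146). The 95% interval of that change, 0.03 to 1.48, includes values larger than the Mt1 estimate. Like that of Mt1, this interval takes the same spread in both groups, against SDs of 0.08 and 0.72. Without TFEB-injected replicate 1 the change was 1.15 and passed (limma adjusted p = 0.00194). It was 0.67 without replicate 2 and 0.44 without replicate 3, and passed in neither case (adjusted p = 0.325 and 0.261).

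Within arrays, the log2 difference Mt1 minus Mt2 was -0.05, 0.04 and -0.09 in not-injected and 0.43, 0.19 and 0.14 in injected replicates 1, 2 and 3. The groups did not overlap, and the mean differed by 0.29. A two-sided exact permutation test gave p = 0.10, the smallest that 3 arrays against 3 allow. Mt1 and Mt2 lie next to each other on chromosome 8 in the RefSeq annotation, in the order Mt4, Mt3, the noncoding gene Gm39227, Mt2 and Mt1. Mt3, known from brain, changed by -0.02 ± 0.06 (SE), and Mt4, known from stratified epithelia, by -0.09 ± 0.11. Neither passed (adjusted p = 0.854 and 0.634).

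Mtf1, for the zinc-sensing factor itself, read 7.75, 7.79 and 7.77 in not-injected and 7.88, 7.82 and 7.76 in injected livers. The groups overlapped and the change of 0.05 ± 0.05 (SE) did not pass (adjusted p = 0.510); its second probe set gave -0.12. These values are of the Mtf1 transcript and do not measure the protein's activity.

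Among the zinc exporters, Slc30a1 (ZnT1), which carries zinc out across the cell surface, fell. Its probe set read 8.23, 8.26 and 8.37 in not-injected and 7.89, 7.85 and 7.84 in injected replicates 1, 2 and 3. The 3 injected values lay within a narrow band below every not-injected value. The mean went from 8.28 ± 0.07 to 7.86 ± 0.03 (SD, n = 3), a log2 change of -0.42 ± 0.05 (SE; limma adjusted p = 0.00185), or 1.34-fold lower. Relative to the not-injected mean, injected replicates 1, 2 and 3 stood at -0.39, -0.44 and -0.44, so replicate 1 was low in Slc30a1 while its Mt2 value was within the not-injected range.

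Slc30a5 (ZnT5), which loads zinc into the early secretory pathway, rose. It read 9.79, 9.70 and 9.83 in not-injected and 10.22, 10.27 and 10.10 in injected livers, again without overlap. The log2 change was 0.43 ± 0.06 (SE; limma adjusted p = 0.00370), or 1.34-fold. Slc30a6, for the partner of ZnT5 in that complex, changed by 0.08 ± 0.05 (adjusted p = 0.314). Slc30a7, for another secretory pathway ZnT, changed by 0.15 ± 0.05 (adjusted p = 0.0760).

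Slc30a4 (ZnT4), a transporter of endosomal and secretory vesicles, showed overlapping groups. It read 8.83, 8.91 and 8.91 in not-injected and 8.83, 8.83 and 8.91 in injected livers. The log2 change was -0.02 ± 0.05 (SE; adjusted p = 0.780), with a 95% interval from -0.14 to 0.09. That interval leaves out changes as large as those estimated for Slc30a1 and Slc30a5.

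The ZIP importers went in different directions. Slc39a14 (ZIP14), a broad metal importer of the hepatocyte surface that carries zinc, iron and manganese, fell. It read 10.71, 10.71 and 10.79 in not-injected and 10.46, 10.36 and 10.12 in injected replicates 1, 2 and 3. All 3 injected livers were lower than all not-injected ones, and replicate 3 was the lowest. The mean went from 10.74 ± 0.05 to 10.31 ± 0.17 (SD, n = 3), a log2 change of -0.43 ± 0.09 (SE; limma adjusted p = 0.0137), or 1.35-fold lower. Leaving out not-injected replicate 3 ended the call (adjusted p = 0.0532). A second Slc39a14 probe set read 7.65, 7.83 and 7.86 against 7.55, 7.34 and 7.53 and fell as well, by 0.31 on the log2 scale (adjusted p = 0.0397 over all probe sets).

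Slc39a8 (ZIP8), the closest relative of ZIP14 and likewise a carrier of zinc, iron and manganese, rose. It read 9.58, 9.63 and 9.65 in not-injected and 9.91, 9.93 and 9.88 in injected livers. The 3 injected livers agreed closely and lay above every not-injected one. The log2 change was 0.29 ± 0.04 (SE; limma adjusted p = 0.00478), or 1.22-fold. A second, dim Slc39a8 probe set, between 5.22 and 5.57, showed overlapping groups (0.08 ± 0.09; adjusted p = 0.603), and with the mean of both probe sets the call was lost (0.18; adjusted p = 0.0760).

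The remaining ZIP genes did not pass. Slc39a1 (ZIP1), a surface importer found in most tissues, read 9.99, 10.06 and 9.999 in not-injected and 10.01, 10.02 and 10.05 in injected livers. Its change of 0.01 ± 0.04 (SE; adjusted p = 0.897) had a 95% interval from -0.09 to 0.12, and its sign turned with median centring of the arrays. Slc39a4 (ZIP4), known as the main zinc importer of the intestine, read 8.65, 8.54 and 8.77 in not-injected and 8.54, 8.59 and 8.20 in injected livers, with injected replicate 3 lowest (change -0.21 ± 0.11; adjusted p = 0.238). Slc39a7 (ZIP7), which releases zinc from the endoplasmic reticulum and Golgi, read 9.50, 9.54 and 9.55 in not-injected and 9.68, 9.56 and 9.15 in injected livers.

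For Slc39a7 the injected livers fell on both sides of the not-injected range, replicates 1 and 2 above it and replicate 3 below. Its only probe set is of the _s_at type, which can also detect related transcripts. The gene was therefore absent where _s_at and _x_at probe sets were left out. The change was -0.06 ± 0.13 (SE; adjusted p = 0.779), and without TFEB-injected replicate 3 it was 0.09 (adjusted p = 0.277). Not-injected means ran from 8.28 for Slc30a1 to 12.24 for Mt2, an order that reflects probe sets as well as transcripts and was not tested.

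**Figure D2:**
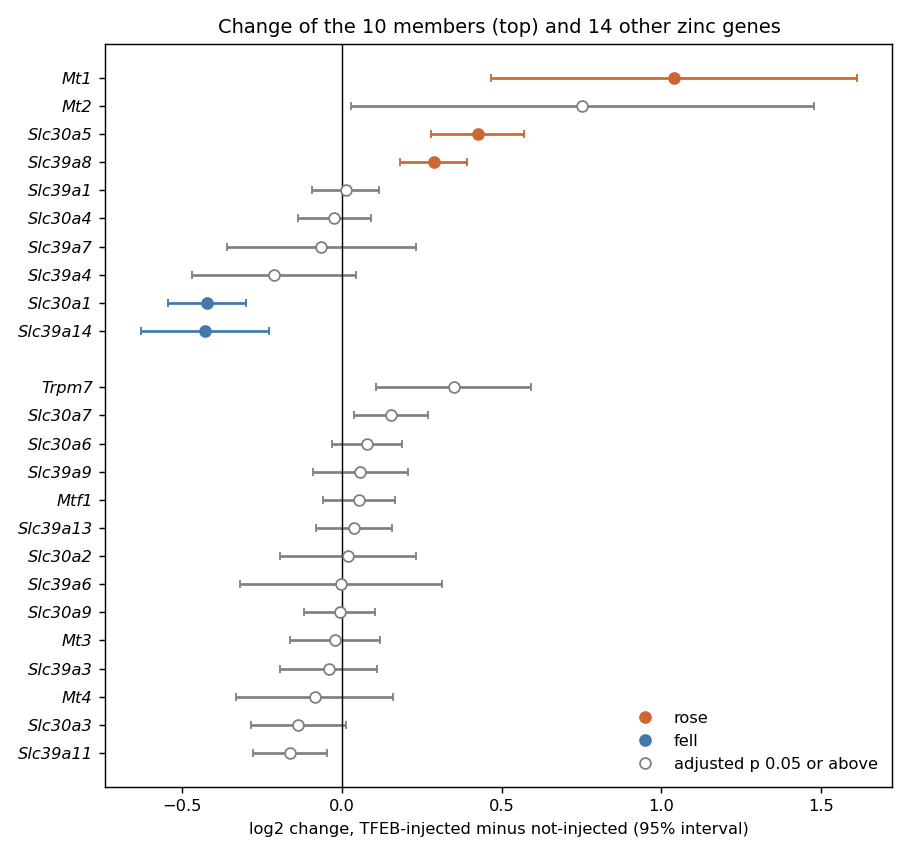
Log2 change (TFEB-injected minus not-injected) of each lead probe set with its 95% interval from limma; the 10 members are at the top and 14 other measured zinc genes below, with filled points for adjusted p under 0.05. The filled points of 5 members lie on both sides of 0, and all 14 other zinc genes, dimmer on average than the members, show open points.

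The share called was 17.9% over all genes. Of 20 further zinc genes listed, 14 were measured and 0 passed (limma), with 3 at an unadjusted p under 0.05. Their median log2 change was 0.01, with a range from -0.16 to 0.35. They were dimmer, averaging 7.69 to 7.72 on the log2 scale in not-injected livers, against 9.97 to 10.04 for the members. The members were chosen with earlier results known, and the sets were not tested against each other. Of the 14 measured, the 3 with the highest levels were Slc30a9, Trpm7 and Slc39a11. Slc30a9, for a mitochondrial zinc transporter, changed by -0.01 ± 0.05 (SE; adjusted p = 0.941). Trpm7, for a cation channel that also passes zinc, was at 9.66, 9.75 and 9.63 in not-injected and 9.83, 9.99 and 10.26 in injected livers, without overlap (0.35 ± 0.10; adjusted p = 0.0570). Slc39a11 (ZIP11) changed by -0.16 ± 0.05 (adjusted p = 0.0636). A second Slc39a6 probe set gave -0.25 (adjusted p = 0.0198 over all probe sets), while its lead probe set gave 0.00. That gene was singled out after its values were seen.

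Among the members, the injected livers differed from each other most in Mt1 and Mt2. Relative to the not-injected mean, Mt1 stood 0.43, 1.14 and 1.55 higher in TFEB-injected replicates 1, 2 and 3, and Mt2 stood at -0.03, 0.92 and 1.38. Slc39a14 stood at -0.29, -0.38 and -0.62 and Slc39a7 at 0.15, 0.03 and -0.38. The transporters Slc30a1, Slc30a5 and Slc39a8 differed little between the injected livers. For Slc30a5 these differences were 0.45, 0.50 and 0.33, and for Slc39a8 they were 0.29, 0.31 and 0.26.

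The genes nearest to Mt1 in pattern, by root mean square difference of centred log2 values over the 6 arrays, were Ripply3, Tox and Klf6 (0.07, 0.10 and 0.11). Ripply3 stood 0.49, 1.23 and 1.73 above the not-injected mean in injected replicates 1, 2 and 3. Nearest to Mt2 were Orm2, for an acute phase glycoprotein, Pparg, for a nuclear receptor of fat storage, and Plce1 (0.07, 0.15 and 0.17). Mt1 and Mt2 differed from each other by 0.17 on this measure. Orm2 stood at -0.09, 0.83 and 1.46 in the injected livers, so its replicate 1 also lay within the not-injected range. Nearest to Slc30a1 were Emc9, Parva and Car14, for a zinc-dependent carbonic anhydrase (each 0.02). These 9 genes are the closest of all genes tested and were picked for that closeness.

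**Figure D3:**
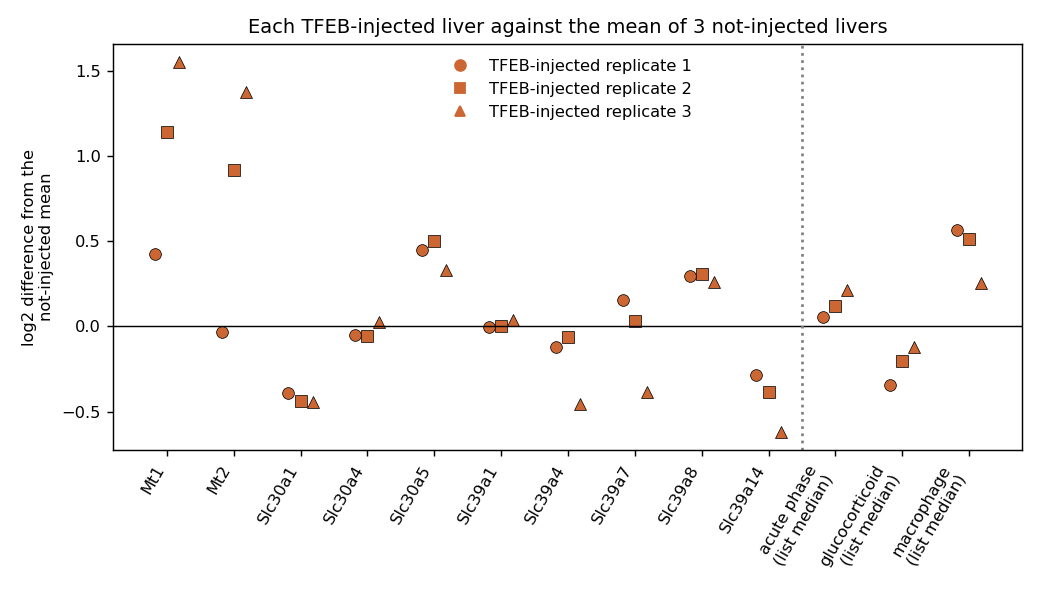
Log2 difference of each TFEB-injected liver (marker shapes for replicates 1 to 3) from the mean of the 3 not-injected livers, for the 10 members and, right of the dotted line, for the median of 3 gene lists. Mt1 ranges from 0.43 to 1.55 and Mt2 from -0.03 to 1.38, while Slc30a1 and Slc39a8 stay within narrow bands on opposite sides of 0.

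Genes that respond to the cytokine and hormone signals known to act on metallothionein genes went both ways. Their counts stand beside 9.99% of all genes rising, 7.92% falling and 37.1% without overlap. Of 24 acute phase and interleukin-6 response genes, 7 rose and 4 fell, with a median change of 0.12 and a range from -0.83 to 3.32. In 16 of the 24 the groups did not overlap, and the list's mean log2 level was 11.12 to 11.16 in not-injected and 11.145 to 11.89 in injected livers. The largest change was that of Saa2, for a serum amyloid (3.32 ± 0.91 SE; limma adjusted p = 0.0450), named after its values were seen. Saa2 stood 0.87, 4.26 and 4.84 above the not-injected mean in injected replicates 1, 2 and 3. The pentraxin genes Crp (0.43 ± 0.04 SE) and Apcs (0.97 ± 0.17) rose, while Cebpd, for a transcription factor of the acute phase (-0.83 ± 0.06), and Saa4, for a constitutive serum amyloid (-0.44 ± 0.06), fell. The list median stood 0.06, 0.12 and 0.21 above the not-injected mean in injected replicates 1, 2 and 3. Of 14 glucocorticoid-responsive genes, 6 fell and 3 rose, with a median of -0.20. The phosphatase gene Dusp1 (-1.49 ± 0.13) and the gluconeogenic gene Pck1 (-0.68 ± 0.05) fell, and the kinase gene Sgk1 (0.35 ± 0.06) and Angptl4 (0.30 ± 0.05), for a lipase inhibitor, rose. The part of either signal in the metallothionein values was not tested.

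Genes of other metals were mixed too. Over all genes 9.99% rose and 7.92% fell, and no list was tested against these shares. Iron shares ZIP8 and ZIP14 with zinc as carriers. Of 10 measured iron genes, 3 rose and 1 fell, with a median of 0.02. The transferrin receptor gene Tfrc (0.62 ± 0.09 SE) and the ferroportin gene Slc40a1 (0.45 ± 0.06) rose and the hepcidin gene Hamp fell (-0.36 ± 0.06). Of 11 copper genes, 1 rose and 2 fell (median -0.02). They were the chaperone gene Atox1 (0.31 ± 0.07) and the metalloreductase genes Steap4 (-0.86 ± 0.07) and Steap3 (-0.34 ± 0.06). Of 13 metal and oxidative stress genes, 1 rose and 2 fell (median 0.05). The heme oxygenase gene Hmox1 rose (0.81 ± 0.07), and Sod1, for the copper and zinc superoxide dismutase (-0.29 ± 0.04), and the quinone reductase gene Nqo1 (-0.18 ± 0.05) fell.

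Whole liver holds several cell types, and fewer cells of a type cannot be told apart from less RNA per cell. Over all genes 9.99% rose, and 3894 of 12393 had an unadjusted limma p under 0.05. Of 14 macrophage markers, 9 rose and 0 fell (limma; 12 of 14 at an unadjusted p under 0.05), with a median of 0.44, among them Cd5l (0.63 ± 0.05 SE) and Vsig4 (0.50 ± 0.06). Their mean log2 level was 8.70 to 8.74 in not-injected and 8.98 to 9.30 in injected livers, and the list median stood at 0.57, 0.51 and 0.26 in injected replicates 1, 2 and 3. Macrophages also express Slc39a8, which rose in the same livers, and their part in that value was not tested.

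Other cell type lists gave fewer calls, to be read beside 17.9% of all genes called. Of 13 endothelial markers 2 rose, Stab2 (1.42) and Lyve1 (0.89), with a median of -0.02. Of 12 stellate and fibroblast markers, 2 rose, Col3a1 (0.32) and Col1a2 (0.24), and 3 fell, including Lrat (-0.48) and Reln (-0.19). Pancreatic acinar markers fell in 3 of 7 cases, including Cela1 (-0.85) and Prss2 (-0.38). In the other lists 1 gene each passed, Sox9 of 6 cholangiocyte markers (-0.33), S100a8 of 9 neutrophil markers (0.25), Gzma of 8 T and NK cell markers (0.36), Ighm of 5 B and plasma cell markers (-0.99), Alas2 of 4 erythroid markers (-0.81) and Tat of 10 hepatocyte markers (-0.49). S100a8 (4.79 to 5.23 over the arrays, limma adjusted p = 0.0499) and Gzma (5.33 to 5.92) were dim. The part of these cell types in the zinc gene values was not tested.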

How the data were processed

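Expression arrays of liver RNA were compared between 3 TFEB-injected and 3 not-injected mice, labelled as biological replicates. The authors processed them by RMA with affy, per the submitters' processing notes. RMA corrects background, quantile-normalizes arrays and summarises probes. The deposited values are log2 levels from 3.08 to 15.20, with array medians from 6.92 to 6.93. RMA hides shifts in total RNA and compresses changes of dim genes.

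Of 22690 probe sets, 64 were controls, 20393 had 1 gene symbol, 691 several and 1606 none. The 20380 non-control probe sets with 1 symbol covered 12393 genes, and the probe set with the highest mean represented each. Gene IDs of 20364 probe sets were in the RefSeq gene table. The fit was limma 3.58.1 (R 4.3.3; lmFit, eBayes) over all genes with Benjamini-Hochberg adjustment, and it was tested on simulated data. Promoter windows were searched in Python 3.11.15, and figures used matplotlib 3.10.9.

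The members and gene lists were chosen with earlier results of these data known. Named by rule were all members, zinc genes passing or with the 3 highest levels, the 2 smallest p-values per direction of each other list, and the 3 genes nearest in pattern to Mt1, Mt2 and Slc30a1. The lists' symbols that the annotation did not match are not analysed here. Arrays, being few, limit the precision.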

Additional observations from a re-analysis of the deposited data

How the results depend on the processing

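Across 14 alternatives each, Slc30a1 (log2 change from -0.45 to -0.38) and Slc30a5 (0.39 to 0.50) kept direction and call. Slc39a14 lost its call without not-injected replicate 3, and Slc39a8 with the mean of probe sets, as given above. Mt1 lost its call in 6 of 14, with changes from 0.21 to 1.35. Besides 4 single-array omissions, these were the intensity trend with robust prior (adjusted p = 0.1005) and leaving out _s_at and _x_at probe sets (0.21; adjusted p = 0.160), where the dim probe set stands for the gene. Mt2 passed in 2 of 14, without TFEB-injected replicate 1 and with array weights (0.90; adjusted p = 0.00270). The sign turned for Slc39a1 with median centring (-0.0196), cyclic loess (-0.0036) and single arrays left out (-9e-04 to 0.032), and for Slc39a7 with array weights (0.0358) and single arrays left out (-0.1746 to 0.0941). The count of 5 members ranged from 3 to 6 with single arrays left out, and was 3 at an adjusted p under 0.01 and 1 with at least 1.5-fold also required. The count of 2219 genes ranged from 1229 to 2409 with single arrays left out. It was 5854 with array weights, whose estimation stopped before its tolerance was reached, 1053 at an adjusted p under 0.01 and 420 with at least 1.5-fold. The cause of these differences was not tested. Same-numbered arrays did not deviate together (r = 0.01, -0.13 and -0.11), and with a replicate block 5 members and 1533 genes passed.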
